A study of Arabidopsis thaliana with 12 samples.

Results

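The response of Arabidopsis thaliana seedlings to the plant elicitor peptide PEP3, given alone, was measured by RNA sequencing and set against a DMSO mock. The PEP3 group was Col-0 wild-type seedlings, 10 days old, that were moved to fresh liquid medium with 10 nM AtPEP3 and sampled after 6 h. The DMSO group was seedlings of the same genotype and age sampled after the same 6 h without the peptide, and every treatment contained an equal amount of DMSO. Each group had 3 libraries of whole seedlings, described as biological replicates. Libraries of seedlings given 600 nM isoxaben, an inhibitor of cellulose synthesis, with 10 nM PEP3 (3 libraries) or without it (3 libraries) shared the fit and gave the effect of the peptide in samples that the comparison of PEP3 with DMSO did not use. The genes described are the 20248, of 32833 in the deposited table, whose FPKM averaged 0.5 or more across all 12 libraries. FPKM are fragment counts divided by gene length and library depth.

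Plant elicitor peptides are cut from the carboxyl ends of PROPEP precursor proteins, which are held inside cells and processed when cells are damaged. They are perceived at the plasma membrane by the leucine-rich repeat receptor kinases PEPR1 and PEPR2, which act with co-receptors of the SERK family such as BAK1. Signalling then runs through receptor-like cytoplasmic kinases (BIK1, PBL1), the oxidase RBOHD, calcium influx and MAP kinases to the transcription of defence genes. The PROPEP genes themselves are among the known targets, so the peptides are regarded as amplifiers of immunity raised by wounding and by microbial patterns.

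The PEP3 and DMSO libraries held between 17039366 and 21470788 fragments assigned to genes, the highest in DMSO replicate 1, and the libraries with isoxaben between 16995775 and 22793764. Across genes, replicates of PEP3 or DMSO correlated at 0.988 to 0.991 (log2 values), and all pairs differed by more than sampling noise (chi-square per gene 4.41 to 11.6). Ribosomal RNA genes took 0.392%, 0.117% and 0.0975% of fragments in PEP3 replicates 1, 2 and 3, against 0.159%, 0.149% and 0.208% in DMSO replicates 1, 2 and 3, and the part of this share in the results was not tested. The defining markers of both main seedling tissues were present in all libraries. Changes are differences of means on the log2(FPKM + 1) scale, PEP3 minus DMSO. On this scale the change of weakly expressed genes comes out too small. A gene was called where the limma p-value adjusted by the Benjamini-Hochberg method was under 0.05. The gene lists and their members were chosen with earlier results of these data known, so counts within them are descriptions.

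PEP3 changed 2894 of the 20248 genes (14.3%), of which 1587 were higher (7.84%) and 1307 lower (6.45%). On the log2(FPKM + 1) scale the rises were larger than the falls. Of the raised genes, 245 (15.4%) rose by at least 1, 46 by at least 2 and 12 by at least 3. Of the lowered genes, 31 (2.37%) fell by at least 1 and 0 by at least 2. These sizes belong to this scale. Across the other settings the change of CYP82C2 reached 7.49, that of FAMT -3.67 and that of MGD3 -2.755. The median change was 0.50 among raised and -0.41 among lowered genes, against 0.0069 over all genes tested. Calls were more frequent at higher expression: among 4 equal groups of genes by mean FPKM, in the lowest 3.60% were called higher and 2.09% lower, and in the highest 13.2% were called higher and 13.7% lower, with a median standard error of 0.16 in the lowest and 0.08 in the highest. The ranges of the 3 PEP3 and 3 DMSO libraries did not overlap for 6524 genes (32.2%). The number of calls depended on single libraries. It was 1621 without DMSO replicate 1, 1642 without PEP3 replicate 2 and 1895 without DMSO replicate 2, and between 2131 and 2615 without any 1 of the other libraries.

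**Figure D1:**
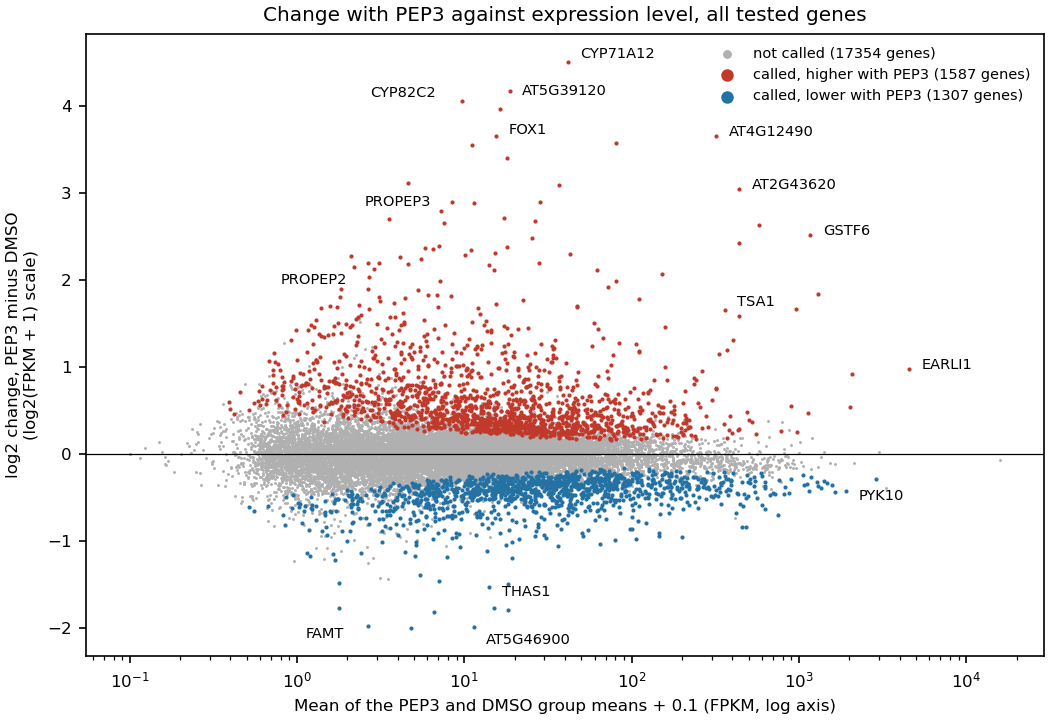
Change with PEP3 (vertical axis, log2(FPKM + 1) scale, PEP3 minus DMSO) of the 20248 tested genes against the mean of the PEP3 and DMSO group means plus 0.1 (horizontal log axis, FPKM). Called genes are red (1587 higher) or blue (1307 lower), other genes grey. Rises reach 4.51 (CYP71A12) while the lowest called changes are -1.995 (AT1G06267, not labelled) and -1.99 (AT5G46900).

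Among the precursors, PROPEP3, which encodes the applied peptide, and PROPEP2 rose, and the other 6 of the 8 PROPEP genes were not called. PROPEP3 (AT5G64905, chromosome 5, 25939562 to 25940080) had 12.1, 18.0 and 16.4 FPKM in the PEP3 libraries, against 0.715, 1.82 and 1.15 FPKM in the DMSO libraries. PROPEP2 (AT5G64890, chromosome 5, 25934568 to 25935612) had 3.55, 5.525 and 4.82 FPKM in the PEP3 libraries and 0.275, 0.657 and 0.560 FPKM in the DMSO libraries. All PEP3 values of both genes lay above all DMSO values, with PEP3 replicate 1 the lowest of its group in each. The change was 2.90 (SE 0.20, adjusted p 8.40e-07) for PROPEP3 and 1.90 (SE 0.21, adjusted p 6.14e-05) for PROPEP2. PROPEP1 (AT5G64900), their neighbour on chromosome 5, had 4.05, 3.49 and 4.24 FPKM with PEP3 and 2.885, 3.05 and 3.05 FPKM with DMSO. Its groups did not overlap, but its change of 0.30 (SE 0.12) did not pass the test (adjusted p 0.108). The changes of PROPEP4, PROPEP5, PROPEP6, PEP7 and AT5G09976 lay between -0.27 and 0.34 with overlapping groups and adjusted p of 0.209 to 0.945. A gene on the opposite strand covers 37.0% of PROPEP6, and whether the fragments were counted by strand is not stated in the labels. The 8 genes had a median change of 0.23.

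The receptors of the peptide did not pass the test. PEPR1 (AT1G73080) had 4.73, 4.57 and 4.16 FPKM in the PEP3 libraries, against 3.985, 3.78 and 4.66 FPKM in the DMSO libraries. PEPR2 (AT1G17750) had 1.06, 1.41 and 0.689 FPKM in the PEP3 libraries, against 0.987, 0.881 and 1.21 FPKM in the DMSO libraries. The groups overlapped for both receptors, and the changes were 0.10 (SE 0.12, adjusted p 0.669) for PEPR1 and 0.0074 (SE 0.15, adjusted p 0.985) for PEPR2. SERK4 (AT2G13790), a co-receptor kinase of the BAK1 family, was the only called member of the 7-gene receptor complex list. It had 9.49, 12.1 and 11.0 FPKM with PEP3 and 5.52, 5.34 and 5.18 FPKM with DMSO, a rise of 0.90 (SE 0.10, adjusted p 4.52e-05). Its PEP3 values were all above its DMSO values. BAK1, BIK1, PBL1 and RBOHD had positive changes between 0.11 and 0.21 that were not called, and the median of the list was 0.16.

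Of 13 receptors for other patterns and danger signals, 7 were called higher and 0 lower, against 7.84% called higher among all genes, with a median of 0.34. Without PEP3 replicate 2, DMSO replicate 1 or DMSO replicate 2, 5 were called higher. RLP23, the receptor-like protein for a pattern shared by necrosis-inducing microbial proteins, had 3.83, 3.39 and 4.16 FPKM in the PEP3 libraries and 0.701, 0.546 and 0.569 FPKM in the DMSO libraries. The groups were far apart, and the change was 1.58 (SE 0.18, adjusted p 6.90e-05). SOBIR1, the adaptor kinase of such receptor-like proteins, averaged 16.5 ± 2.03 FPKM with PEP3 and 8.47 ± 0.843 FPKM with DMSO (SD, n = 3 each), a rise of 0.88 (SE 0.12, adjusted p 2.90e-04); a gene on the opposite strand covers 31.6% of it. MIK2, the receptor kinase for SCOOP peptides, averaged 47.4 ± 3.47 FPKM with PEP3 and 27.35 ± 1.53 FPKM with DMSO and rose by 0.77 (SE 0.08, adjusted p 3.03e-05). The chitin receptor kinases CERK1 and LYK4, the lipid-associated pattern receptor LORE and the PIP-peptide receptor RLK7 rose by 0.32 to 0.53. The flagellin receptor FLS2 (0.15), the elongation factor Tu receptor EFR (0.34), the chitin receptor LYK5 and the wall-sensing kinases FER and THE1 were not called, nor was the extracellular ATP receptor DORN1, which had a negative change of -0.15.

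In the MAP kinase cascade 4 of 11 genes were called higher and 0 lower (median 0.17), against 7.84% of all genes called higher. MPK11 was the strongest, with 1.24, 2.55 and 2.19 FPKM in the PEP3 libraries, against 0.1004, 0.780 and 0.351 FPKM in the DMSO libraries, which did not overlap. It rose by 1.09 (SE 0.20, adjusted p 0.00304). MKK2 rose by 0.44 and MKK5 by 0.27. MKK1 rose by 0.37 with an adjusted p of 0.0472, a call lost without any 1 library except DMSO replicate 2. MPK3, MPK4 and MPK6, the kinases activated by phosphorylation within minutes of pattern perception, had changes of 0.15, 0.17 and 0.09 and were not called.

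Of 11 marker genes commonly used to read out pattern-triggered immunity, 7 were called higher and 0 lower, with a median of 0.47. The share called higher among all genes was 7.84%. The number was 4 without PEP3 replicate 2 and 4 without PEP3 replicate 3. CYP81F2, the cytochrome P450 that hydroxylates indole glucosinolates, had 37.55, 50.7 and 50.6 FPKM in the PEP3 libraries, against 4.12, 7.56 and 7.82 FPKM in the DMSO libraries. Its lowest PEP3 value was far above its highest DMSO value, and it rose by 2.69 (SE 0.18, adjusted p 8.40e-07). FRK1, the flagellin-induced receptor-like kinase, had 5.98, 5.84 and 5.98 FPKM with PEP3 and 1.94, 1.81 and 1.74 FPKM with DMSO, a rise of 1.29 (SE 0.13, adjusted p 3.28e-05) with almost no spread inside the groups. WRKY33, the transcription factor that activates camalexin genes, averaged 24.6 ± 4.99 FPKM with PEP3 and 9.85 ± 2.16 FPKM with DMSO and rose by 1.24 (SE 0.15, adjusted p 1.21e-04). NHL10 (1.11), WRKY53 (0.94), WRKY40 (0.47) and WRKY30 (0.47) were also called. WRKY18, WRKY22, WRKY29 and PHI-1 had changes between -0.12 and 0.13 and overlapping groups.

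**Figure D2:**
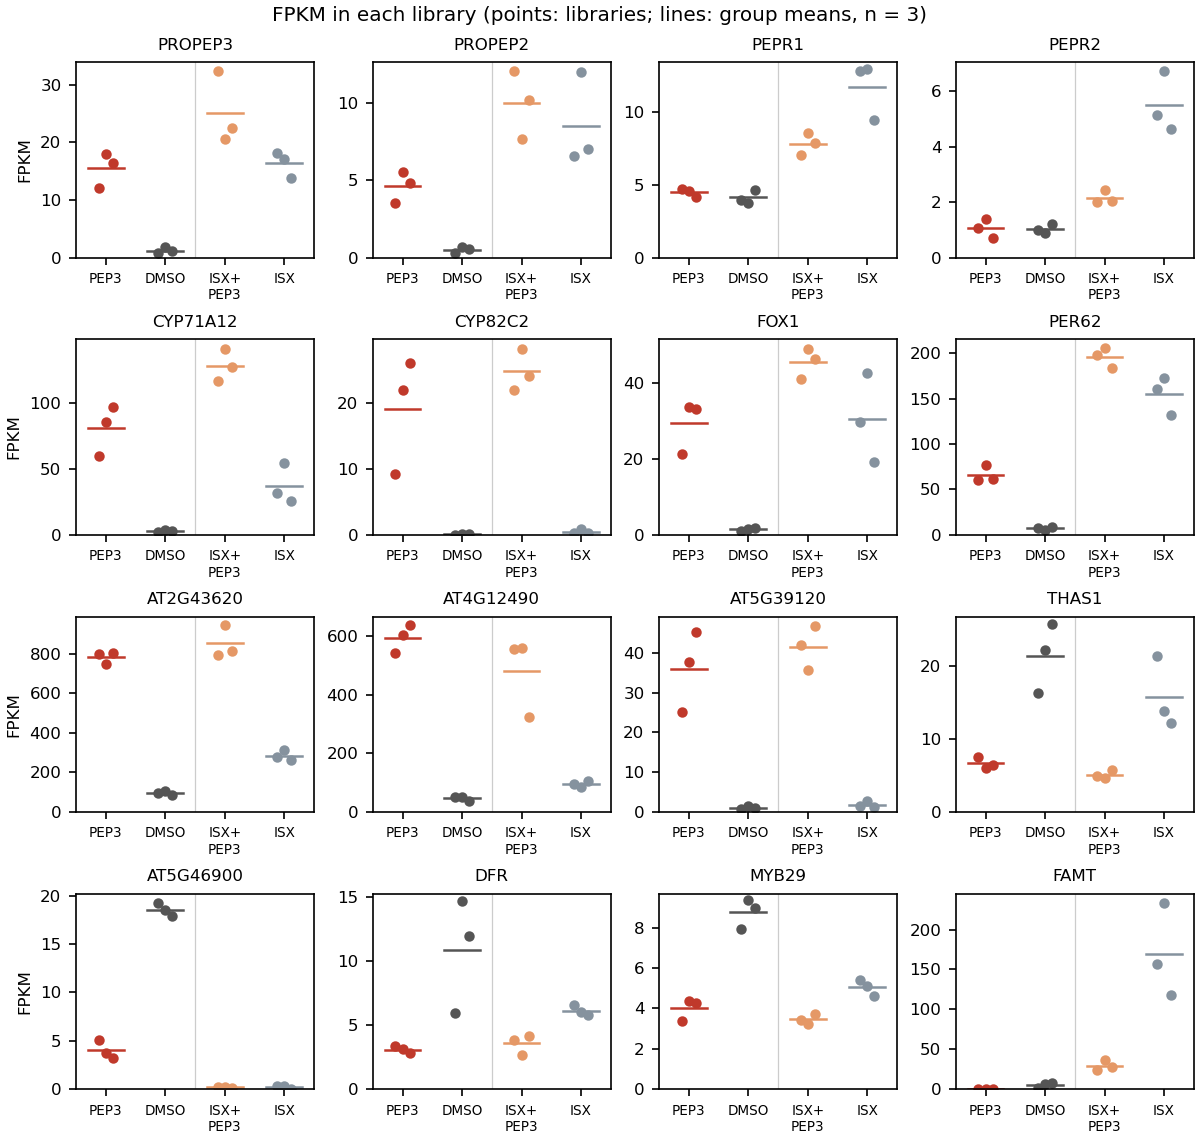
FPKM in each library (vertical axes, from 0) for 16 genes, with PEP3 left of DMSO and isoxaben plus PEP3 (ISX+PEP3) left of isoxaben (ISX). Points are libraries and lines are group means (n = 3). PROPEP3, PROPEP2 and CYP71A12 are separated between PEP3 and DMSO, the receptor genes PEPR1 and PEPR2 overlap, and THAS1, AT5G46900, DFR, MYB29 and FAMT are lower with PEP3.

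The largest rises included genes of tryptophan-derived defence chemistry. CYP71A12 (AT2G30750, chromosome 2, 13099486 to 13101371), a cytochrome P450 that converts indole-3-acetaldoxime towards camalexin and related indole compounds, had 59.8, 85.5 and 96.5 FPKM in the PEP3 libraries, against 1.77, 3.27 and 2.675 FPKM in the DMSO libraries. CYP82C2 and FOX1, which act in the branch that makes 4-hydroxyindole-3-carbonyl nitrile, followed the same pattern. CYP82C2 had 9.18, 21.9 and 26.1 FPKM with PEP3 and 0.0253, 0.151 and 0.147 FPKM with DMSO, and FOX1 had 21.3, 33.7 and 33.1 FPKM with PEP3 and 0.911, 1.57 and 1.65 FPKM with DMSO. In all of them PEP3 replicate 1 was the lowest of the PEP3 libraries and still far above the DMSO libraries. The changes were 4.51 for CYP71A12 (SE 0.24, adjusted p 7.26e-08), 4.06 for CYP82C2 (SE 0.29, adjusted p 1.11e-06) and 3.66 for FOX1 (SE 0.24, adjusted p 5.28e-07).

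Of the 9 genes of the camalexin and 4-hydroxyindole pathway, 6 were called higher and 0 lower (median 1.17), against 7.84% of all genes called higher. Beside the 3 above, GSTF6, a glutathione transferase of camalexin synthesis, averaged 1990 ± 120 FPKM with PEP3 and 347 ± 14.4 FPKM with DMSO, a rise of 2.52 (adjusted p 9.42e-09). PAD3, the last enzyme of camalexin synthesis, had 22.5, 32.2 and 27.45 FPKM with PEP3 and 7.70, 10.9 and 17.8 FPKM with DMSO, and rose by 1.17 (adjusted p 0.0148) with DMSO replicate 3 close to the PEP3 range. CYP79B2, which makes indole-3-acetaldoxime, rose by 0.69. CYP71A13, the near relative of CYP71A12 that also feeds camalexin, had 0.115, 1.15 and 0.785 FPKM in the PEP3 libraries and 0.0931, 0.334 and 1.16 FPKM in the DMSO libraries. These values overlapped, and CYP71A13 was not called (change 0.15, adjusted p 0.862). The pair are 87.0% identical. CYP79B3 and GGP1 were not called. Without PEP3 replicate 2 or DMSO replicate 1, 4 genes of the pathway were called higher, and 5 without DMSO replicate 2.

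Most enzymes of tryptophan synthesis, which supplies these compounds, rose. Of 10 genes 6 were called higher and 1 lower, with a median of 0.92, against 7.84% higher and 6.45% lower among all genes. TSA1, the alpha subunit of tryptophan synthase, had 526, 598 and 516 FPKM in the PEP3 libraries, against 159, 176 and 184 FPKM in the DMSO libraries, and rose by 1.66 (SE 0.14, adjusted p 6.92e-06). IGPS, indole-3-glycerol phosphate synthase, averaged 150.5 ± 11.7 FPKM with PEP3 and 61.9 ± 1.26 FPKM with DMSO (change 1.27, SE 0.17, adjusted p 2.61e-04). PAT1, the phosphoribosyl transferase, averaged 154 ± 12.5 FPKM with PEP3 and 67.3 ± 4.37 FPKM with DMSO (change 1.18, SE 0.13, adjusted p 5.24e-05). The groups did not overlap for any of the 3 genes. ASB1, TSB1 and TSB2 rose by 1.14, 0.96 and 0.89. ASA1, the stress-responsive anthranilate synthase, had a change of 0.43 that was not called (adjusted p 0.0650). PAI1 fell by 0.31, a call that was lost when any 1 of the libraries except DMSO replicate 3 was left out. PAI1 is 98.8% identical to PAI2, which was not called, so their reads may be shared.

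In the indole glucosinolate pathway 8 of 12 genes were called higher and 0 lower (median 0.54), against 7.84% of all genes called higher. With any 1 library left out, 6 or 7 were called higher. Beside CYP81F2, IGMT2, a methyltransferase acting after it, had 16.4, 16.4 and 18.55 FPKM with PEP3 and 2.07, 3.24 and 2.85 FPKM with DMSO, without overlap. It rose by 2.30 (SE 0.18, adjusted p 2.50e-06), and its copy AT1G21110 is 96.6% identical, so its share of reads is uncertain. The activator MYB122 had 3.73, 3.78 and 4.44 FPKM with PEP3 and 0.7125, 0.603 and 0.588 FPKM with DMSO, a rise of 1.61 (SE 0.14, adjusted p 6.07e-06). The related activator MYB51 rose by 0.70, while MYB34 was not called and had a change of -0.15. IGMT1, CYP83B1, SOT16 and the myrosinase PEN2 rose by 1.27, 0.76, 0.39 and 0.24. SUR1, UGT74B1 and the exporter PEN3 were not called.

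Genes for aliphatic glucosinolates, which are made from methionine by parallel enzymes, were lower with PEP3. Of 12 genes 10 were called lower, against 6.45% of all genes, and 0 were called higher; all 12 changes were negative, with a median of -0.52. The activator MYB29 had 3.36, 4.375 and 4.25 FPKM in the PEP3 libraries, against 7.96, 9.385 and 8.955 FPKM in the DMSO libraries, which did not overlap. It fell by 0.97 (SE 0.11, adjusted p 5.32e-05). CYP79F1, which makes aldoximes from chain-elongated methionine, had 34.8, 33.0 and 35.6 FPKM with PEP3 and 56.5, 66.4 and 80.35 FPKM with DMSO and fell by 0.94 (SE 0.13, adjusted p 2.97e-04). MAM1, the chain-elongation synthase, had 98.5, 97.5 and 102.5 FPKM with PEP3 and 163, 193.5 and 221 FPKM with DMSO and fell by 0.94 (SE 0.11, adjusted p 1.21e-04). For both genes the PEP3 libraries were nearly equal and the DMSO libraries spread over a wider range above them. BCAT4, BAT5, CYP83A1, UGT74C1, SOT18, CYP79F2 and MAM3 fell by 0.24 to 0.69. MYB28 (-0.23) and SOT17 (-0.17) were not called.

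Enzymes of the phenylpropanoid and monolignol route, which leads to lignin, rose by small amounts: 11 of 17 were called higher and 1 lower (median 0.39). Among all genes 7.84% were called higher and 6.45% lower. The number called higher was 5 without PEP3 replicate 2, 6 without DMSO replicate 1 and 6 without DMSO replicate 2. CCR2, the cinnamoyl-CoA reductase isoform induced in defence, had 6.83, 6.31 and 5.87 FPKM with PEP3 and 2.01, 1.66 and 2.39 FPKM with DMSO, a rise of 1.28 (SE 0.17, adjusted p 2.34e-04). CCR1, the isoform of normal lignification, was not called (-0.14). 4CL1 averaged 93.4 ± 5.94 FPKM with PEP3 and 60.8 ± 5.37 FPKM with DMSO (change 0.61, SE 0.09, adjusted p 7.62e-04), and CAD5 averaged 89.7 ± 3.76 FPKM with PEP3 and 58.8 ± 6.02 FPKM with DMSO (change 0.61, SE 0.11, adjusted p 0.00200). Of the entry enzymes PAL1, PAL2 and PAL4 rose by 0.40 to 0.48 and PAL3 fell by 0.42. The PAL3 call was lost without any 1 library except PEP3 replicate 3.

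An endochitinase gene, 3 peroxidase genes and an extensin-like gene were among the 12 highest changes. AT2G43620 (chromosome 2, 18093694 to 18095093), an endochitinase, had 800.4, 749 and 805 FPKM in the PEP3 libraries, against 93.2, 103 and 85.7 FPKM in the DMSO libraries, with little spread in either group. Its change was 3.05 (SE 0.09, adjusted p 4.44e-10). PER62 (AT5G39580, chromosome 5, 15847065 to 15849141), a class III peroxidase, had 60.75, 76.5 and 61.2 FPKM with PEP3 and 7.13, 5.48 and 8.01 FPKM with DMSO (change 3.10, SE 0.13, adjusted p 9.42e-09). The peroxidases PER4 and PER5, neighbours on chromosome 1, rose by 3.56 and 3.12. PER4 had 15.2, 24.0 and 24.4 FPKM with PEP3 and 0.293, 1.58 and 0.897 FPKM with DMSO, and PER5 had 6.07, 10.8 and 9.92 FPKM with PEP3 and 0, 0.320 and 0.0445 FPKM with DMSO. The extensin-like gene AT1G26240 averaged 31.4 ± 8.91 FPKM with PEP3 and 1.03 ± 0.354 FPKM with DMSO (change 3.97, SE 0.27, adjusted p 7.43e-07). Separate PEP3 and DMSO groups were a condition for the 12 highest changes, so their separation is no further result.

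The germin-like genes clustered on chromosome 5 had 8 members in the table and 7 tested, of which 5 were called higher and 0 lower (median 1.23). Among all genes 7.84% were called higher. AT5G39120 (15662582 to 15663527) had 25.1, 37.7 and 45.3 FPKM in the PEP3 libraries, against 0.782, 1.403 and 0.846 FPKM in the DMSO libraries, a rise of 4.18 (SE 0.21, adjusted p 4.80e-08). AT5G39110 had 28.1, 34.8 and 37.9 FPKM with PEP3 and 1.86, 3.24 and 1.77 FPKM with DMSO, a rise of 3.41 (SE 0.16, adjusted p 2.88e-08). AT5G39130 had 2.91, 2.855 and 3.76 FPKM with PEP3 and 0.590, 0 and 0.0625 FPKM with DMSO, a rise of 1.80 (SE 0.17, adjusted p 2.00e-05). The groups of AT5G39130 were apart. Separate groups were a condition for the 12 highest changes, which include AT5G39120 and AT5G39110. AT5G39120 is 97.1% identical to AT5G39150 and AT5G39130 is 97.2% identical to AT5G39190, so the split of fragments among these copies is uncertain; the nearest copy of AT5G39110 is 92.9% identical. With the filter at a mean of 2 FPKM, 3 members were called, but that filter leaves members such as AT5G39130 untested.

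Of 7 neighbouring lipid-transfer-like genes of the EARLI1 cluster on chromosome 4, a list made after values had been seen, 4 were called higher and 2, AT4G12510 and AT4G12520, lower (changes of -0.74 and -0.73). The count lower was 0 without PEP3 replicate 2, and 1 without PEP3 replicate 3, DMSO replicate 1 or DMSO replicate 2. AT4G12490 (7409621 to 7410406) had 543, 603 and 637 FPKM with PEP3, against 51.15, 49.0 and 38.5 FPKM with DMSO, and rose by 3.66 (SE 0.18, adjusted p 2.88e-08). AT4G12500 had 130.5, 149 and 167 FPKM with PEP3, against 12.1, 12.6 and 9.84 FPKM with DMSO, and rose by 3.58 (SE 0.15, adjusted p 9.42e-09). Both genes were among the 12 highest changes, for which separate groups were a condition. A gene on the opposite strand covers 35.9% of AT4G12490.

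Letters of the promoters were read to show what lies directly before the starts of strongly raised genes. The W-box is the motif bound by WRKY transcription factors, several of which rose (WRKY33, WRKY53, WRKY70). It was searched as TTGACC or TTGACT on both strands, each start position counted once whether or not matches overlap, in the 250 bases before the annotated start of each gene. The sequences below are RefSeq TAIR10.1 genome sequence on the strand of the gene, with W-boxes in capitals; PROPEP3, CYP82C2 and AT2G43620 were chosen as strongly raised genes with 3 or more, and CYP71A12 as the most raised gene.
PROPEP3 (chr5:25939312-25939561, + strand): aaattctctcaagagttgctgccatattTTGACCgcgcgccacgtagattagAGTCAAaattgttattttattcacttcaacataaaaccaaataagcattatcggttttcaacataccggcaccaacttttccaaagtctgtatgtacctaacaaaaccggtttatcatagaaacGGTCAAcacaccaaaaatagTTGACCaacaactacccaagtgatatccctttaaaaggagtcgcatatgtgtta
CYP82C2 (chr4:15462100-15462349, + strand): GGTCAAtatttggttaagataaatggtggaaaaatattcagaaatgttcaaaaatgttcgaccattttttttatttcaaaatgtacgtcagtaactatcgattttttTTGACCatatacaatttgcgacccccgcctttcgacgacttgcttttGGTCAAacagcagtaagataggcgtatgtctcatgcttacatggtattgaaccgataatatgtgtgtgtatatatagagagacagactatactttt
AT2G43620 (chr2:18095094-18095343, - strand): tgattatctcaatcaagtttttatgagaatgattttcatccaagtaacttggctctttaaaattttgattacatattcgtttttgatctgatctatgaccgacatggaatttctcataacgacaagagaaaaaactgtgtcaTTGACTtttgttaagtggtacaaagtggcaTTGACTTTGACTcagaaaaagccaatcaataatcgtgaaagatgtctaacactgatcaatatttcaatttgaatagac
CYP71A12 (chr2:13101372-13101621, - strand): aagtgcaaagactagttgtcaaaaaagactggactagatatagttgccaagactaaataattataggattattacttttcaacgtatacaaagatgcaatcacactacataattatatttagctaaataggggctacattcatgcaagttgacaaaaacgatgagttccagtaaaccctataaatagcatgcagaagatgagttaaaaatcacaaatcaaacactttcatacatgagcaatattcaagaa

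PROPEP3 held 4 W-boxes, the first bases of which lie 222, 198, 74 and 54 bases before the start. CYP82C2 held 3, at 250, 143 and 96 bases, and AT2G43620 held 3, at 108, 78 and 72 bases. CYP71A12 held none in this window, which says only that these letters are absent from it. A W-box was found before 28 of the 45 protein-coding genes raised by at least 2 with a window (62.2%), 139 of 241 raised by at least 1 (57.7%) and 670 of all 1573 raised (42.6%). Among lowered genes 278 of 1285 had one (21.6%), and among all tested protein-coding genes 5563 of 19523 (28.5%). At least 2 W-boxes were present in 24.5% of genes raised by at least 1 and in 6.11% of all. The G-box CACGTG was found in 2.22% of genes raised by at least 2, 3.32% of those raised by at least 1, 5.91% of all raised, 8.17% of those lowered and 7.23% of all. The GCC-box GCCGCC, bound by ethylene response factors, was present in 2.22% of genes raised by at least 2, 3.73% of those raised by at least 1, 2.03% of all raised, 2.02% of those lowered and 1.95% of all. These shares describe the letters and carry no test.

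**Figure D3:**
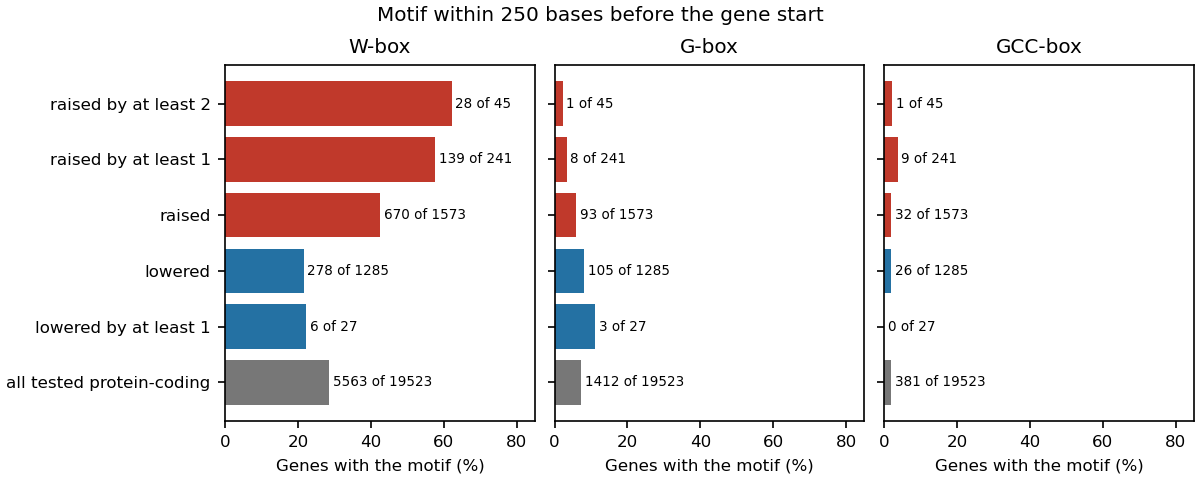
Share of genes (horizontal axes, percent, from 0) with a W-box, a G-box or a GCC-box within 250 bases before the gene start, for raised (red), lowered (blue) and all tested protein-coding genes (grey), with counts beside the bars. The W-box share is 62.2% for genes raised by at least 2 and 28.5% for all.

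Regulators, receptors and an enzyme of the salicylic acid pathway rose. Of 16 listed genes 14 were tested, and 7 were called higher and 0 lower (median 0.36), against 7.84% of all genes called higher. With any 1 library left out, 5 or 6 were called higher. CBP60g, a transcription factor that activates salicylic acid synthesis, had 7.06, 7.265 and 5.99 FPKM in the PEP3 libraries, against 1.99, 2.02 and 1.17 FPKM in the DMSO libraries, a rise of 1.52 (SE 0.12, adjusted p 4.39e-06). PBS3, which conjugates isochorismate to glutamate, had 1.79, 2.67 and 2.34 FPKM with PEP3 and 0.2125, 0.339 and 0.186 FPKM with DMSO, a rise of 1.38 (SE 0.17, adjusted p 1.38e-04). WRKY70 had 11.1, 13.35 and 10.2 FPKM with PEP3 and 5.30, 3.02 and 6.83 FPKM with DMSO, a rise of 1.096 (SE 0.18, adjusted p 0.00147). None of the 3 overlapped. SARD1 (0.91) and the receptors NPR3 (0.48), NPR4 (0.43) and NPR1 (0.29) also rose. ICS1, the isochorismate synthase, its exporter EDS5, and the EDS1, PAD4 and SAG101 genes had changes between -0.04 and 0.17 and were not called.

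Of the 5 pathogenesis-related genes PR1 and PR2 were called higher (median 0.44), both at low levels, against 7.84% of all genes called higher. PR1 had 1.46, 2.735 and 2.72 FPKM with PEP3 and 0.514, 0.184 and 0.120 FPKM with DMSO (change 1.36, SE 0.33, adjusted p 0.0147). PR2 had 2.47, 1.55 and 1.985 FPKM with PEP3 and 0.754, 0.751 and 0.987 FPKM with DMSO (change 0.71, SE 0.19, adjusted p 0.0220). The groups were apart, but both calls were lost without PEP3 replicate 3 and without DMSO replicate 2. That of PR1 was also lost without PEP3 replicate 2, and that of PR2 without PEP3 replicate 1 or DMSO replicate 1. PR4, the most abundant, averaged 893 ± 32.4 FPKM with PEP3 and 695 ± 114 FPKM with DMSO and was not called (adjusted p 0.0537).

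Jasmonate genes did not rise together. Of the 13 synthesis genes 0 were called higher and 2 lower (median -0.14), and of the 12 JAZ repressors 0 were called higher and 1 lower (median -0.24). Of the 6 tested of 8 output genes 1 was called higher and 3 lower (median -0.70). Among all genes 7.84% were called higher and 6.45% lower, so the JAZ count is near the share lower. AOS, allene oxide synthase, had 26.6, 23.9 and 25.6 FPKM in the PEP3 libraries, against 34.5, 47.7 and 55.9 FPKM in the DMSO libraries, and fell by 0.81 (SE 0.16, adjusted p 0.00470). FAMT, a methyltransferase gene induced by jasmonate, had 0.413, 0.380 and 0.129 FPKM with PEP3 and 1.31, 5.98 and 7.22 FPKM with DMSO, and fell by 1.97 (SE 0.37, adjusted p 0.00358). DMSO replicate 1 was the lowest of the DMSO libraries for both genes, without overlap with the PEP3 libraries. The FAMT call was lost with voom weights on the fragment counts (adjusted p 0.0790). With isoxaben present (isoxaben plus PEP3 against isoxaben), 10 of the 13 synthesis genes were called lower and 0 higher (median -0.93). Among the 12 JAZ repressors 10 were called lower and 0 higher there (median -0.905), against 4.09% of all genes called lower. Both lists had 7 called interactions below 0, against 4.3% of all genes. Among the 6 tested output genes 2 were called lower there and 0 higher (median -0.65).

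JAZ9 had 6.93, 6.34 and 6.61 FPKM with PEP3 and 8.13, 14.1 and 14.4 FPKM with DMSO, and fell by 0.75 (adjusted p 0.0292). LOX3 fell by 0.44 (adjusted p 0.0476), and the storage proteins VSP1 and VSP2 fell by 1.01 and 1.00 (adjusted p 0.0487 and 0.0417). These calls were near the threshold, and that of LOX3 was lost without any 1 library. Without any 1 of PEP3 replicate 2, DMSO replicate 2 and DMSO replicate 3, 1 output gene was called lower in place of 3. TAT3, a tyrosine aminotransferase induced by jasmonate, was the exception in direction and rose by 0.81 (adjusted p 0.0307). No output gene was called higher without any 1 of the libraries other than DMSO replicate 3. Of the synthesis genes 3 were called lower without DMSO replicate 1 and 1 without any other library. JAZ9 lost its call without any library except DMSO replicate 1.

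Of 13 ethylene genes 11 were tested, and 3 were called higher and 0 lower (median 0.32), against 7.84% of all genes called higher. ACS6, the ACC synthase stabilised by MPK6, had 12.3, 15.5 and 13.1 FPKM with PEP3 and 6.79, 6.67 and 7.10 FPKM with DMSO, a rise of 0.89 (SE 0.12, adjusted p 2.22e-04). ERF6 had 5.89, 10.3 and 6.335 FPKM with PEP3 and 2.95, 3.65 and 4.48 FPKM with DMSO (change 0.84, SE 0.18, adjusted p 0.00837). Neither gene's groups overlapped. The ethylene and jasmonate integrators ERF1 and ORA59 had changes of 0.32 and -0.30 and were not called.

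Few genes of growth and of basic seedling functions were called, apart from the antenna genes. None of the 8 DNA replication genes, the 9 root hair genes and the 9 tested of 10 clock genes was called, with medians of -0.06, 0.06 and -0.07. Among 8 genes of primary wall cellulose synthesis CESA6 was called lower (change -0.20, adjusted p 0.0468) and all 8 changes were negative (median -0.13), but the CESA6 call was lost without any 1 library. Among 9 type-A cytokinin response regulators ARR6 was called lower (change -0.40, adjusted p 0.0338), which was likewise lost without any 1 library. Of 5 tested nitrate genes NIR1, nitrite reductase, had 175, 177 and 169 FPKM with PEP3 and 206, 219.7 and 222 FPKM with DMSO, and fell by 0.31 (SE 0.05, adjusted p 0.00194), a call kept without any 1 library.

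Of 17 light-harvesting antenna and Rubisco small subunit genes 10 were called lower and 0 higher (median -0.39), against 6.45% of all genes called lower. LHCB3 had 578, 434 and 426 FPKM in the PEP3 libraries, against 827, 655 and 663 FPKM in the DMSO libraries (change -0.58, SE 0.14, adjusted p 0.0164). LHCA1 had 455, 347.5 and 308 FPKM with PEP3 and 632, 515 and 523 FPKM with DMSO (change -0.60, SE 0.16, adjusted p 0.0254). LHCB1.2 (AT1G29910, under the name LHCB1.1 in the deposited table), which is 96.1% identical to LHCB1.3, had 441, 286 and 264 FPKM with PEP3 and 720, 532 and 502 FPKM with DMSO (change -0.84, SE 0.25, adjusted p 0.0391). Replicate 1 was the highest library of each group, and its PEP3 value approached the DMSO range. The call of each of these 3 genes was lost without PEP3 replicate 2, PEP3 replicate 3 or DMSO replicate 1, and that of LHCB1.2 also without DMSO replicate 2. The count of 10 fell to 3 without PEP3 replicate 2, 3 without PEP3 replicate 3, 2 without DMSO replicate 1 and 5 without DMSO replicate 2, was 15 without PEP3 replicate 1, and was 4 when no filter on low values was used. RBCS1A, the most abundant transcript of the seedlings, was not called (change -0.07).

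The summed FPKM of the 17 green tissue genes was 32610, 28900 and 27540 in the PEP3 libraries and 36610, 33980 and 33560 in the DMSO libraries. The summed FPKM of 6 root markers was 1700, 1709 and 1781 in the PEP3 libraries and 2277, 2265 and 2336 in the DMSO libraries. Both sums were lower with PEP3 without overlap, and none of the markers was at 0 in any library. The root difference was carried by PYK10, the abundant root glucosidase of endoplasmic reticulum bodies, with 1610, 1606 and 1678 FPKM with PEP3 and 2190, 2169 and 2228 FPKM with DMSO (change -0.43, SE 0.10, adjusted p 0.00907). The root patterning genes SHR and SCR, the Casparian strip gene CASP1 and the phosphate exporter PHO1 had changes between -0.04 and 0.11 and were not called. In whole seedlings fewer cells of a type and less RNA per cell cannot be told apart.

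**Figure D4:**
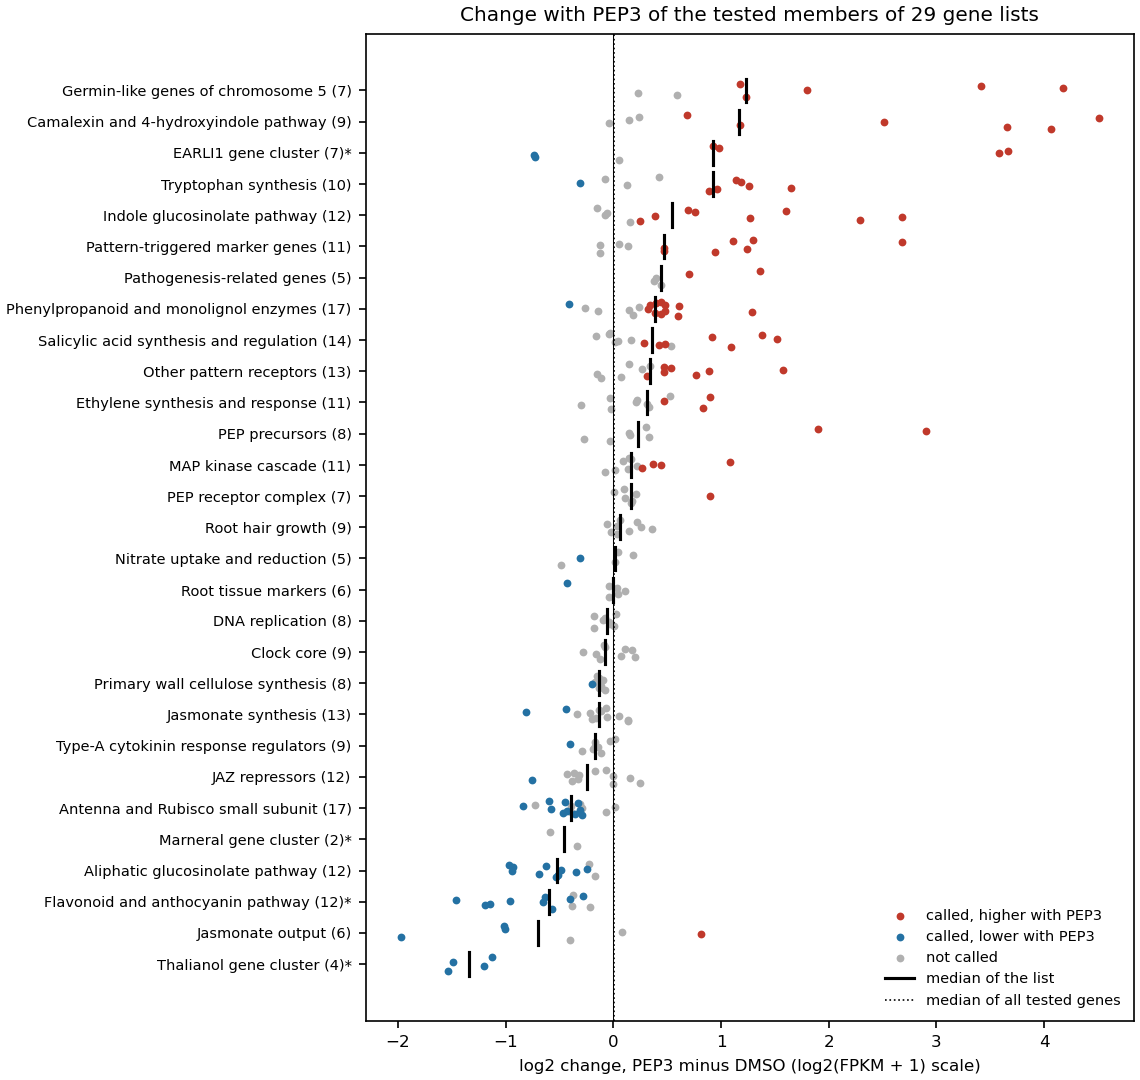
Change with PEP3 (horizontal axis, log2(FPKM + 1) scale, PEP3 minus DMSO) of each tested member of the gene lists, with the number tested in brackets; red and blue points are called higher and lower, grey points not called, thick lines the list medians and the dotted line the median of all genes. Lists with an asterisk were made after their values had been seen, and the other lists were chosen with earlier results of these data known. The germin-like list has the highest median (1.23) and the thalianol cluster the lowest (-1.34).

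The lowest changes of called protein-coding genes with separate groups belonged to a mixed group of genes. AT5G46900 (chromosome 5, 19039701 to 19040456), a lipid-transfer-like gene, had 5.06, 3.72 and 3.17 FPKM in the PEP3 libraries, against 19.3, 18.5 and 17.9 FPKM in the DMSO libraries, and fell by 1.99 (SE 0.14, adjusted p 1.38e-06). Its neighbour AT5G46890, 94.4% identical to it, had 10.12, 6.60 and 6.135 FPKM with PEP3 and 29.3, 35.2 and 21.8 FPKM with DMSO, and fell by 1.79 (SE 0.21, adjusted p 8.74e-05). AT5G62360, a pectin methylesterase inhibitor family gene, had 5.56, 7.135 and 6.19 FPKM with PEP3 and 23.5, 23.1 and 24.5 FPKM with DMSO, and fell by 1.76 (SE 0.10, adjusted p 1.42e-07). The lowest DMSO value of each gene lay far above its highest PEP3 value. The dirigent protein gene DIR13 fell by 1.82, the methylesterase gene MES18 by 1.39 and the galactolipid synthase gene MGD3 by 1.17. MES18 has a gene on the opposite strand over 41.0% of its length. The remaining genes among the 12 lowest, beside FAMT, belong to thalianol synthesis (THAS1, THAD, THAH) and to the anthocyanin branch (DFR, GSTF12).

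The deposited table names protein domains for part of the genes, and 60 domain families had at least 30 tested genes. The families described here were picked after their counts were known, and the counts are descriptions. The berberine bridge and related oxidases (FAD_binding_4) had the highest share called higher, 13 of 31 (41.9%), followed by glutathione transferases (GST_N) with 10 of 31 (32.3%) and WRKY factors with 17 of 60 (28.3%), against 7.84% of all genes. Beside FOX1, FOX5 (2.39), FOX2 (2.195) and FOX4 (1.89), all encoded next to it on chromosome 1, rose. Among the glutathione transferases GSTF7 (2.43), GSTF2 (2.00) and GSTF3 (1.79) rose with GSTF6, while GSTU20 (-0.84) and GSTF12 (-1.19) fell. Among the WRKY factors WRKY60 (1.26), WRKY33 (1.24) and WRKY70 (1.096) rose most and WRKY23 (-0.38) was the 1 that fell, while 0 were called lower without any 1 library other than DMSO replicate 3. Under other scalings the WRKY count was between 11 and 18. Without PEP3 replicate 2 the glutathione transferase count was 6 and the WRKY count 10, without DMSO replicate 1 they were 6 and 11, and without DMSO replicate 2 the WRKY count was 11.

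Kinases of the Pkinase_Tyr class, which includes receptor-like kinases, were called higher in 59 of 277 (21.3%) and lower in 5, and NAC factors (NAM) in 15 of 73 (20.5%) and 0, led by JUB1 (2.198). Plant U-box ubiquitin ligases were called higher in 10 of 41 (24.4%) and 0 lower. The cytochrome P450 family went in both directions, with 24 higher and 20 lower of 164. The kinase count lower was 1 without PEP3 replicate 3 or DMSO replicate 1, 3 without PEP3 replicate 1 or DMSO replicate 2, and 4 to 10 under other scalings. Without PEP3 replicate 2 the counts higher were 8 NAC, 4 U-box and 14 P450 genes, without DMSO replicate 1 they were 8, 7 and 14, and without DMSO replicate 2 the NAC count was 9; the P450 count lower was 13 without PEP3 replicate 2 and 12 without DMSO replicate 2.

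The libraries with isoxaben gave a further measure of the effect of PEP3, as isoxaben plus PEP3 against isoxaben, from 6 other libraries, although all 12 shared the estimate of the spread. In that pair 1501 genes were called (7.41%), 673 higher (3.32%) and 828 lower (4.09%). The count was 944 without isoxaben plus PEP3 replicate 2, 894 without isoxaben plus PEP3 replicate 3 and 881 without isoxaben replicate 1. Of the 46 genes raised by at least 2 by PEP3 alone, 43 (93.5%) also had a positive change in the pair with isoxaben and 31 (67.4%) were called higher there; over all tested genes 49.5% had a positive change. Of the 245 genes raised by at least 1, 189 (77.1%) had a positive change and 122 (49.8%) were called higher, while 19 (7.76%) were called lower. Of the 31 genes lowered by at least 1, 28 (90.3%) had a negative change and 14 (45.2%) were called lower. Among all called genes the agreement in sign was weaker: 1025 of the 1587 raised genes (64.6%) and 938 of the 1307 lowered genes (71.8%).

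The change with isoxaben present differed from the change without it, tested as an interaction, in 1263 genes (6.24%), of which 870 were below 0 (4.3%) and 393 above 0 (1.94%). The interaction count was 662 without DMSO replicate 1, 683 without PEP3 replicate 2, 743 without DMSO replicate 2, 739 without isoxaben plus PEP3 replicate 3 and 795 without isoxaben replicate 2. Of the 80 genes named by rule, 39 had a called interaction, 33 below 0 and 6 above; they were named by a change that enters the interaction, so nothing is read from this count. CYP82C2 had 22.0, 28.3 and 24.2 FPKM with isoxaben plus PEP3 and 0.195, 0.901 and 0.190 FPKM with isoxaben, a change of 4.21 that differed from the change without isoxaben by 0.14 (adjusted p of the interaction 0.892). AT5G39120 had 41.95, 35.7 and 46.9 FPKM with isoxaben plus PEP3 and 1.48, 2.64 and 1.26 FPKM with isoxaben, a change of 3.95 (interaction -0.23, adjusted p 0.734). Both genes had low levels with isoxaben alone and with DMSO. CYP82C2 averaged 0.108 FPKM with DMSO and 0.429 FPKM with isoxaben, below the 1 FPKM added before the log. On this scale such a difference in starting level nearly vanishes, so the nearness of its changes is not read as an equal effect. A miss of the threshold by the interaction does not show that the effects were equal. PROPEP3 had means of 25.1 FPKM with isoxaben plus PEP3 and 16.4 FPKM with isoxaben, a change of 0.57 that was not called (adjusted p 0.108), and the interaction was -2.33 (adjusted p 6.52e-04). PER62 had means of 196 FPKM with isoxaben plus PEP3 and 155 FPKM with isoxaben, a change of 0.34 that was not called, and the interaction was -2.76 (adjusted p 9.27e-06). For comparison, the means with PEP3 alone were 15.5 FPKM for PROPEP3 and 66.2 FPKM for PER62.

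For the receptors the pair with isoxaben gave negative changes: PEPR1 averaged 7.84 FPKM with isoxaben plus PEP3 and 11.8 FPKM with isoxaben (change -0.52, adjusted p 0.0193), and PEPR2 averaged 2.16 FPKM with isoxaben plus PEP3 and 5.51 FPKM with isoxaben (change -1.03, adjusted p 0.00141). The interaction was -0.62 (adjusted p 0.0479) for PEPR1 and -1.04 (adjusted p 0.0143) for PEPR2. Of the thalianol genes THAS1 fell by 1.42 in the pair with isoxaben and by 1.53 without it. FAMT fell by 2.47 in the pair, at means of 28.97 FPKM with isoxaben plus PEP3 and 169 FPKM with isoxaben. Without isoxaben FAMT fell by 1.97, at means of 0.307 FPKM with PEP3 and 4.84 FPKM with DMSO. At that low level the added 1 FPKM makes the change too small, so the changes of FAMT cannot be ranked. Lists differed in this pair. Germin-like genes were called higher in 6 of 7 (median 1.61) and aliphatic glucosinolate genes lower in 5 of 12 (median -0.24). Among all genes 3.32% were called higher and 4.09% lower in this pair. Pattern-triggered markers had 0 called higher and 1 lower (median -0.05). Camalexin and 4-hydroxyindole genes had 3 called higher and 4 lower (median -0.33). Antenna and Rubisco genes had 1 called higher and 0 lower (median 0.22), with 7 called interactions above 0, against 1.94% of all genes.

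**Figure D5:**
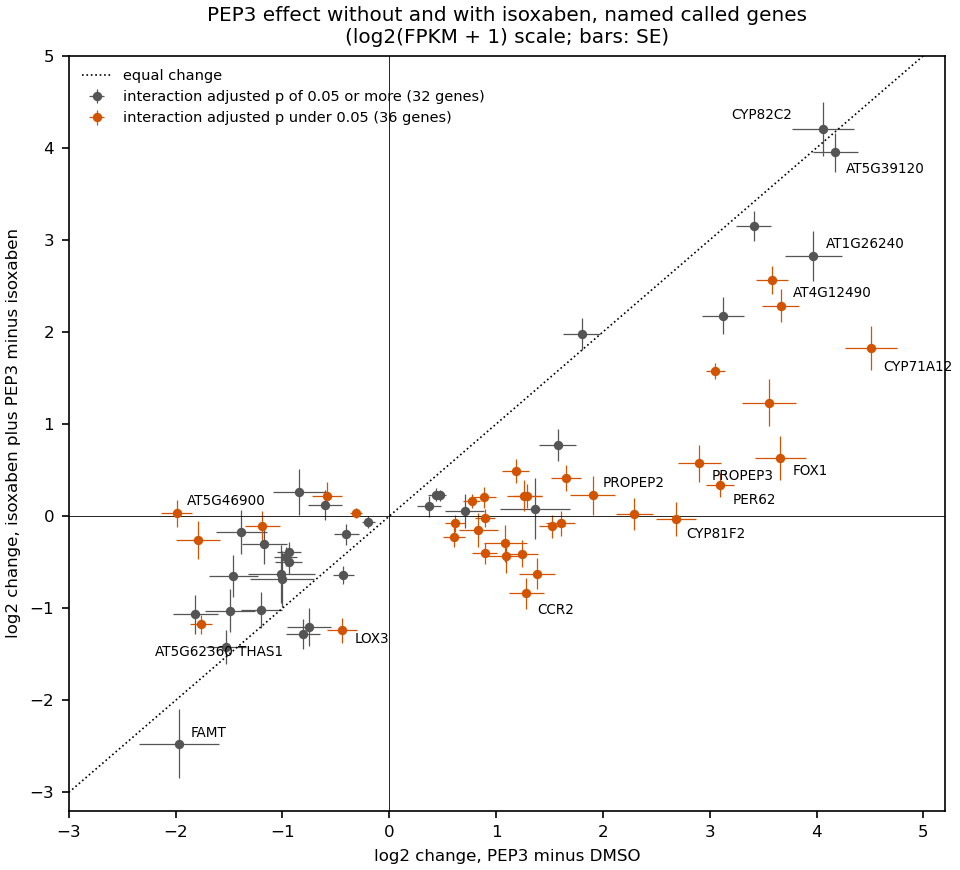
Change with PEP3 of the named called genes in the presence of isoxaben (vertical axis, isoxaben plus PEP3 minus isoxaben) against the change without it (horizontal axis, PEP3 minus DMSO), both on the log2(FPKM + 1) scale, with standard errors as bars. Orange points have an interaction with adjusted p under 0.05. CYP82C2 and AT5G39120 lie near the dotted line of equal change, and FOX1, PER62, PROPEP3 and CYP81F2 lie near 0 on the vertical axis. For CYP82C2, with means below 1 FPKM without the peptide, the scale itself draws the changes together.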

How the data were processed

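Whole-seedling RNA was sequenced in 12 libraries, 3 for each of 4 treatments. The authors deposited 1 table of FPKM values per gene and library, with reads aligned to TAIR10 by HISAT2 2.0.5 per the submitters' processing notes. The labels name no counting tool and no strand setting. FPKM multiplied by gene length and by a divisor for each library, found from the smallest steps of the values, gave whole fragments for 100% of values (tolerance 0.01), from which depth was taken.

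Genes were kept at a mean of 0.5 FPKM or more over the libraries, which left out 12585 genes. FPKM are not counts, so limma 3.58.1 (R 4.3.3) was fitted to log2(FPKM + 1) with 1 mean per treatment and 8 residual degrees of freedom, with a moderated variance that follows the mean. Adjustment of p-values (Benjamini-Hochberg) ran over all tested genes. PEP3 was set against DMSO, isoxaben plus PEP3 against isoxaben, and the difference of these effects was the interaction. On simulated data for PEP3 against DMSO, 200 of 20248 genes were changed. Of the changes of 1 and of 2 on the log2 scale, 92% and 99% were recovered, and 4.5% of calls were false. The simulated noise was independent between genes, with no shift shared within a library. Most calls in the data were smaller than 1 (15.4% of raised and 2.37% of lowered genes reached it), so these rates do not describe them.

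The genes named by rule were the 12 highest and 12 lowest changes among called protein-coding genes with separate groups, all precursor and receptor complex genes, and up to 3 called members with the largest change of each other list. Other list members, gene families and domain families were named after their values were seen. Members and lists were chosen with earlier results of these data known. Copies were searched with BLAST 2.17.0, and a copy of at least 95% identity over at least 50% of the gene was called near-identical. Promoters came from the TAIR10.1 genome of RefSeq, where 99.95% of matched genes have the start and end of the deposited table. Alternatives were other pseudocounts, filters, scalings, variance models and thresholds, a replicate block, voom on the recovered fragments, removal of a trend with GC content and length, and leaving out each library.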

Additional observations from a re-analysis of the deposited data

Results flagged for a closer look

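The effect of PEP3 differed with and without isoxaben, by the interaction test of limma with an adjusted p under 0.05, for 39 of the 80 genes named by rule, against 6.24% of all genes. Each value is the change with isoxaben present minus the change without it on the log2 scale, so a negative value is an effect that was more negative, or less positive, with isoxaben. The value includes the change without isoxaben by which many of these genes were named, so the naming favours a called interaction. Nothing is read from the count of 39 against the 6.24%. The negative values covered unlike cases in the pair with isoxaben. CYP71A12 was still called higher there (change 1.83). WRKY33 was not called (change -0.41), with means of 97.0 FPKM with isoxaben and 9.85 FPKM with DMSO. CCR2 and PBS3, raised by PEP3 alone, were called lower there (changes of -0.84 and -0.62, limma adjusted p 0.00899 and 0.0399). How far the level with isoxaben alone shaped these values was not tested.

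Among the PEP pathway genes the value was -2.33 for PROPEP3, -1.68 for PROPEP2, -0.62 for PEPR1, -1.04 for PEPR2, -0.91 for SERK4 and -0.63 for RBOHD. Among other receptors and kinases it was -0.68 for SOBIR1, -0.61 for MIK2, -1.38 for MPK11 and -1.08 for FRK1. In indole and tryptophan chemistry it was -2.68 for CYP71A12, -3.03 for FOX1, -2.72 for CYP81F2, -2.27 for IGMT2, -1.68 for MYB122, -1.24 for TSA1, -1.04 for IGPS, -0.70 for PAT1 and -1.65 for WRKY33. Of the secreted peroxidases and the chitinase, PER4 had -2.32, PER62 had -2.76 and AT2G43620 had -1.47. In the EARLI1 cluster AT4G12490 had -1.38 and AT4G12500 had -1.02.

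In the phenylpropanoid route CCR2 had -2.12, 4CL1 had -0.69 and CAD5 had -0.83. Of the hormone genes CBP60g had -1.63, PBS3 had -2.01, WRKY70 had -1.53, ACS6 had -1.30, ERF6 had -0.99 and LOX3 had -0.80. The change without isoxaben is subtracted, so genes named for a fall tend to positive values and raised genes to negative ones. The 6 positive values belonged to genes lowered by PEP3 alone. They were 2.02 for AT5G46900, 1.54 for AT5G46890, 0.59 for AT5G62360, 1.08 for GSTF12, 0.80 for LHCB3 and 0.35 for NIR1.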

How the results depend on the processing

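The main counts were 2894 genes for PEP3 against DMSO, 1263 for the interaction and 1501 for the pair with isoxaben. Leaving out 1 library gave 1621 to 2615, 662 to 1500 and 881 to 1483. Requiring a log2 change of at least 1 gave 276, 303 and 187, and an adjusted p under 0.01 gave 1327, 405 and 537. With only the compared groups in the fit the pair with isoxaben had 931 genes. The other settings gave 2458 to 3053 for PEP3 against DMSO. Calls were 54.8% higher, against 50.1% after quantile normalization, 58% with TPM scaling and 52.2% with voom, and scalings moved the median of all genes to between -0.0151 and 0.0181. With the replicate number as a block 2751 genes were called, 2610 of them shared, and 1173 and 1405 in the other comparisons. Deviations from the group means correlated at -0.111 to 0.103 between same-numbered libraries and at -0.0983 to 0.123 between others. These ranges showed no pairing by number. With 3 libraries a group they cannot exclude one, and the labels state none.

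Of the 68 called genes named by rule, 55 kept the call under all 19 settings tried for single genes and 13 lost it under at least 1, with no change of direction; for several of them the call ended under the settings without a filter or without the variance trend, and the cause was not tested. Among the lists, 0 to 3 JAZ repressors were called lower under the settings other than left-out libraries, 4 pathogenesis-related genes were called higher with voom, and 4 antenna genes were called lower with no filter. Of the genes not called, the log2 change of AT5G09976 had values between -0.158 and 0.0666 with 1 library left out, 0.0666 without PEP3 replicate 3 and 0.0633 without DMSO replicate 2. The log2 change of PEPR2 lay between -0.115 and 0.140 with 1 library left out, with -0.003185 without PEP3 replicate 1, -0.00481 without DMSO replicate 1 and -0.0442 without DMSO replicate 2, and had -0.00477 with a pseudocount of 0.1, -0.0109 after quantile normalization and -0.0212 with voom. Weakly expressed genes, such as PEPR2 and CYP71A13, had standard errors that hide small changes.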

Other observations

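Genes of flavonoid and anthocyanin synthesis, which make pigments and sunscreens from phenylpropanoid precursors, were lower with PEP3. The list was made after values had been seen. Of 13 members 12 were tested, 9 were called lower and 0 higher (median -0.60), against 6.45% of all genes called lower. DFR, dihydroflavonol reductase, had 3.38, 3.095 and 2.77 FPKM with PEP3 and 5.92, 14.7 and 12.0 FPKM with DMSO, and fell by 1.46 (limma adjusted p 0.00101). Separate groups were a condition for the 12 lowest changes, which include DFR, and DMSO replicate 1 was the lowest of the DMSO libraries. GSTF12, which carries anthocyanins towards the vacuole, fell by 1.19, LDOX by 0.96 and the glycosyltransferase gene A3G2XYLT by 1.15. CHS, chalcone synthase at the entry of the pathway, had a change of -0.38 (adjusted p 0.0570), and the regulators PAP1 and PAP2 were not called either. The number called lower was 5 without PEP3 replicate 2, 5 without PEP3 replicate 3 and 4 without DMSO replicate 2. In the pair with isoxaben 0 of the 12 tested genes were called higher and 0 lower (median -0.19).

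The thalianol cluster on chromosome 5, whose enzymes make a root triterpene, was lower in all 4 listed genes (median -1.34), again in a list made after values had been seen. THAS1, thalianol synthase, had 7.52, 5.96 and 6.46 FPKM with PEP3 and 16.2, 22.2 and 25.8 FPKM with DMSO, and fell by 1.53 (SE 0.19, adjusted p 1.44e-04). THAH had a change of -1.198, THAD fell by 1.49 and the acyltransferase gene BAHD1 fell by 1.12. All 4 were also called lower in the pair with isoxaben (median -1.02). Of the marneral cluster, another set of triterpene genes, 0 of the 2 tested were called (median -0.46).

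The EARLI1 cluster on chromosome 4 holds both directions among 7 tested genes, with 4 called higher and 2 lower (median 0.93). Beside AT4G12490 and AT4G12500, EARLI1 had 5259, 5837 and 7036 FPKM with PEP3 and 3074, 3285 and 2783 FPKM with DMSO (change 0.98), and AZI1 rose by 0.93.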
